A study of Arabidopsis thaliana with 8 samples.

Results

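The xyloglucan endotransglucosylase/hydrolases, or XTH proteins, are wall enzymes that cut xyloglucan and join the cut end to another xyloglucan chain or to water. The XTH genes measured here are the 9 probe sets of the ATH1 array that carry exactly 1 annotated gene whose symbol starts with XTH and a digit, out of 22746 probe sets that are not controls. They were chosen by gene symbol, from the platform's gene table or the TAIR10.1 gene table. The rule used no measured value, though it was set with earlier results of these data known. The TAIR10.1 table holds 33 genes with an XTH symbol or synonym. One more of these has a named probe set under its older symbol, EXGT-A3, and is treated here as a relative outside the 9. The other 23 have no named probe set in these tables and were not analysed here.

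RNA came from whole shoots of Arabidopsis thaliana, labelled Col-1 with stock code N3176, with 4 rosette leaves, on agar in normal air under a 16 h photoperiod and taken 6 h into the light period. The series was made to compare array platforms, and it holds 1 ATH1 array for each of 7 spike mixes, that is, sets of RNAs put into the sample, and 1 for a reference mix. The labels name the mixes by number, give no amounts, and describe the plants of all 8 arrays in the same words. They do not say whether the RNA came from 1 harvest or several, nor how many plants were pooled.

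Xyloglucan is a hemicellulose that binds to cellulose microfibrils in the growing wall. XTH enzymes rearrange it as cells expand, as new wall is laid down and as conducting tissue matures. The family is commonly divided into group I, group II and group III, and a branch of group III holds enzymes that mainly hydrolyse xyloglucan. Single members are known from particular organs, several of them from roots.

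Every value below is a MAS5 signal on a linear scale, set by the authors to a common level on every array. A signal at or under 12.9, the 25th percentile of the whole table, was treated as not measured above the floor. A difference between 2 mixes is a difference between 2 arrays. No mix has a replicate, so no p-value was computed, and an SD over the 8 arrays holds both array error and any difference between mixes. Probe sets differ in how brightly they report a transcript, so the levels of single XTH genes were not ranked against each other. In whole shoots, fewer cells of a type and less RNA per cell cannot be told apart.

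The arrays were much alike. Between 73.6% and 77.1% of probe sets lay above the floor on each, and the Pearson r between arrays, across 11367 brighter probe sets that are not independent replicates, was 0.965 to 0.988. The arrays of mixes 4, 5 and 6 stood apart from mixes 1, 2, 3 and 7 on the first principal component, with loadings of 0.50, 0.44 and 0.33 against -0.43, -0.44, -0.23 and -0.14. The reference array lay between them at -0.03, and this component held 30.9% of the variance. The shoot markers RCA, LHCB4.1, LHCB4.2 and PSAE-1 were far above the floor on every array, with a summed signal of 11022 to 14978. Of the 4 listed root markers 3 could be measured, with a summed signal of 890.2 to 1099.8. PYK10, a beta-glucosidase gene, had 838 to 1055.8. The root hair expansins EXPA7 and EXPA18, at 17.2 to 29.3 and 17.3 to 35.0, lay above the floor on all 8 arrays. The flower marker AT5G07230 was under the floor on all 8.

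XTH transcripts fell into 3 kinds in these shoots. XTH16, XTH20 and XTH32 were above the floor on all 8 arrays, XTH18, XTH19, XTH29 and XTH33 on some of them, and XTH21 and XTH26 on none. These 3 of 9 compare with 66.5% of all probe sets above the floor on every array. The 2 of 9 that were never above it compare with 16.5%. By group, the 9 comprise 6 members of group II and 3 of group III, and no group I member had a named probe set. Per array, between 4 and 7 of the 9 were above the floor, with 7 in mix 5 and 4 in mixes 4 and 6.

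**Figure D1:**
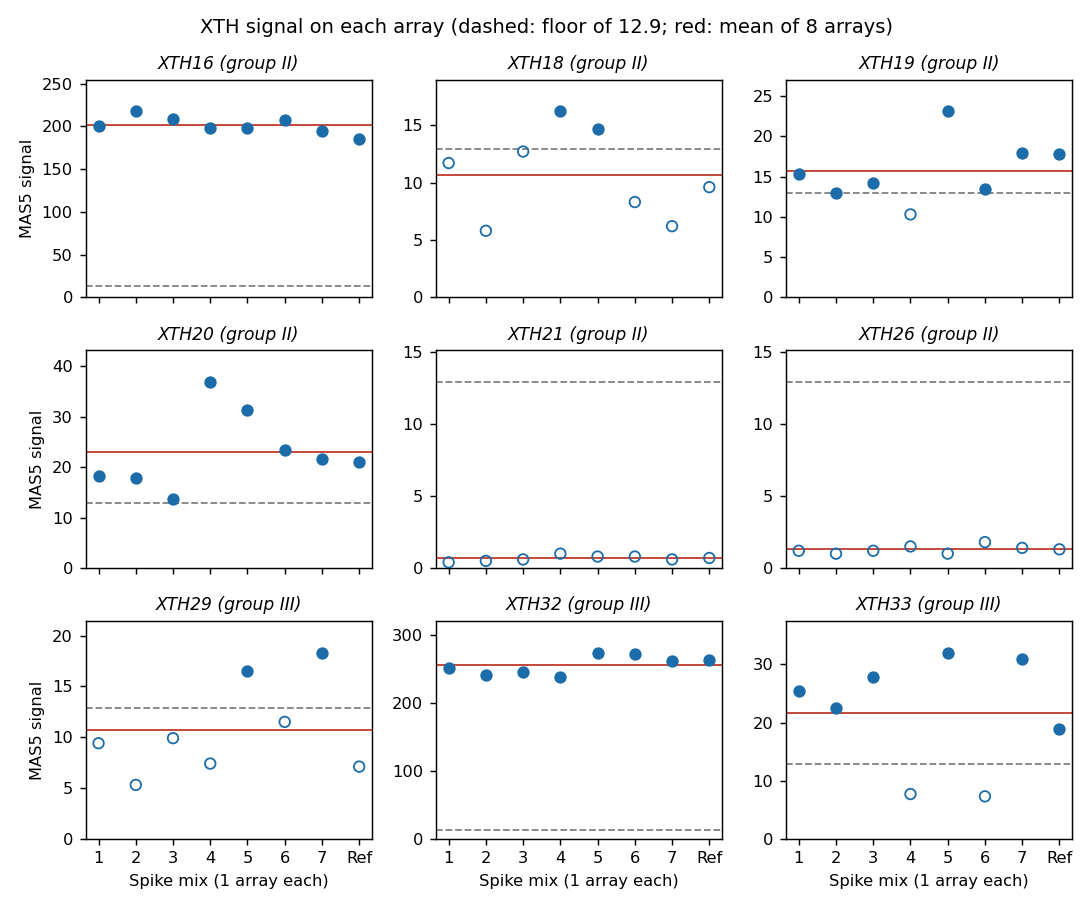
MAS5 signal (linear axis from 0, own scale in each panel) of the 9 XTH genes on the array of each spike mix and of the reference mix (Ref). Filled points are above the floor of 12.9 (dashed), open points at or under it, and the red line is the mean of the 8 arrays. XTH16 and XTH32 stay near their means, XTH33 falls under the floor in mixes 4 and 6, and XTH21 and XTH26 stay under it throughout.

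XTH16 and XTH32 were the steadily measured members. XTH16 (AT3G23730, probe set 257203_at) is a group II gene. Its signal was 200.9, 217.6, 208.2, 197.9, 197.9, 207.1 and 195.0 in mixes 1 to 7 and 184.9 on the reference array. The mean was 201.2 ± 9.85 (SD, n = 8 arrays), and the highest array stood 1.18-fold above the lowest. The reference array was the lowest of the 8, so XTH16 was higher than the reference in all 7 mixes, by log2 differences of 0.08 to 0.23. The reference array was the lowest for 12.9% of probe sets above the floor on all arrays. Set against the mean of the 7 remaining arrays, XTH16 had log2 differences from -0.05 in mix 7 to 0.13 in mix 2.

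XTH32 (AT2G36870, 263841_at) belongs with XTH31 to the group III branch of hydrolases. Its signal was 252.3, 241.3, 246.3, 237.7, 274.1, 272.0 and 262.5 in mixes 1 to 7 and 264.1 on the reference array. The mean was 256.3 ± 13.9 (SD, n = 8 arrays), with a range of 1.15-fold from mix 4, the lowest, to mix 5, the highest. The mixes lay on both sides of the reference array, with log2 differences of -0.15 to 0.05.

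XTH16 and XTH32 varied less than most probe sets of like brightness. Over the 8 arrays, log2 signal had an SD of 0.07 for XTH16 and 0.08 for XTH32. When all probe sets were ranked by mean signal and divided into 4 bins of equal size, both belonged to the brightest bin, where the median SD was 0.12 and 11.8% and 17.2% of probe sets had a smaller SD. Without the arrays of mixes 4, 5 and 6 the SD was 0.09 for XTH16 and 0.06 for XTH32.

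XTH20 (AT5G48070, 248732_at), a group II gene known from conducting tissue and from the rejoining of cut stems, was above the floor throughout but near it. Its signal was 18.2, 17.9, 13.8, 36.9, 31.4, 23.5 and 21.6 in mixes 1 to 7 and 21.1 on the reference array. Mixes 4 and 5 held the highest signals and mix 3 the lowest. The range was 2.67-fold. Against the reference array XTH20 had a log2 difference of 0.81 in mix 4, 0.57 in mix 5 and -0.61 in mix 3.

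XTH33 (AT1G10550, 263207_at) encodes a group III enzyme with a membrane anchor that holds it at the plasma membrane. Its signal was 25.4, 22.5, 27.8, 7.7, 32.0, 7.3 and 30.9 in mixes 1 to 7 and 18.9 on the reference array. Mixes 4 and 6 were under the floor and the other 6 arrays above it. The range was at least 2.48-fold, from the floor to mix 5. The log2 difference to the reference array was 0.76 in mix 5 and 0.71 in mix 7. In mixes 4 and 6 it was -0.55, a bound set by the floor.

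The low signal of XTH33 in mixes 4 and 6 is a pattern singled out after its values were seen. Of all probe sets, 0.101% were at or under the floor in those 2 mixes alone. Among the 500 probe sets at or under the floor on exactly 2 arrays, 23, or 4.6%, had this pair, which ranked 9 of the 28 possible pairs. On the arrays of mixes 4 and 6 the 3'/5' signal ratio of the GAPDH control was 1.22 and 1.32, inside the range of 1.20 to 1.54 over all arrays. That of ubiquitin was the highest of the 8 in mix 4, at 3.52, and the lowest in mix 6, at 2.46, and that of actin lay inside its range of 1.63 to 4.31 in both. The 25S rRNA control had 495 and 271.6 there, against 493.9 to 2198 on the other 6 arrays. The part of these in the XTH33 signal was not tested. XTH20 did not share the pattern: in mix 4, where XTH33 was under the floor, XTH20 had its highest signal.

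XTH20 and XTH33 were the 2 of 9 members that spanned at least 2-fold over the 8 arrays, against 9.2% of all probe sets. Both lie in the second bin of mean signal, from 13.1 to 42.5, where 30.4% of probe sets spanned as much. Their SDs of log2 signal were 0.46 and 0.52, in a bin with a median of 0.29, and 90.4% and 96.2% of that bin had a smaller SD. Without the arrays of mixes 4, 5 and 6 the SDs fell to 0.26 and 0.27 and neither gene spanned 2-fold. Those arrays hold the highest signals of both genes and the XTH33 signals under the floor. A smaller spread without them was therefore built in. A floor at the 40th percentile, 27.7, also left neither gene with a 2-fold span. With a floor at the 10th percentile, 2.7, 5 of the 9 had such a span. The share of all probe sets spanning 2-fold is not given for either floor, so these counts have no background.

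**Figure D2:**
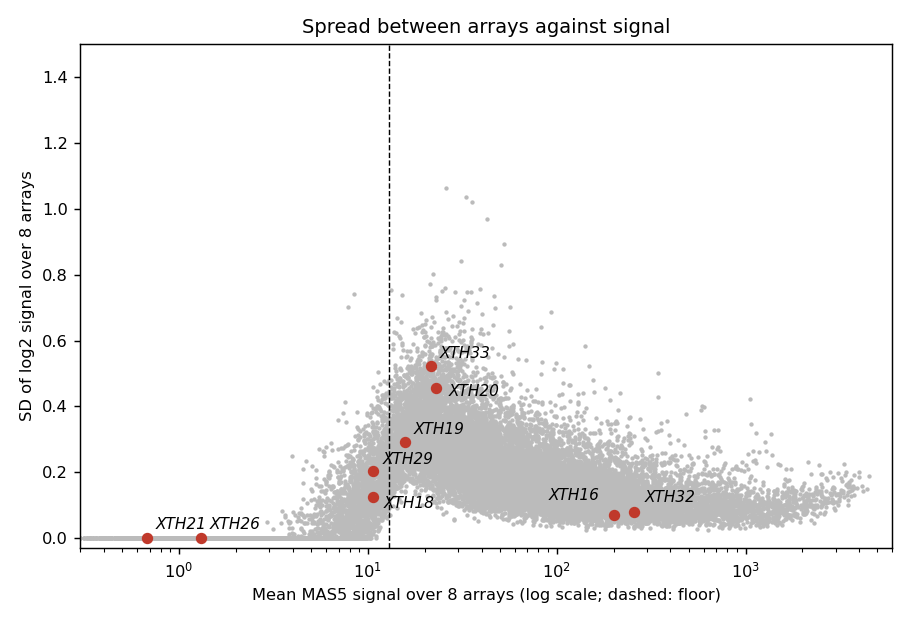
SD of log2 signal over the 8 arrays (vertical axis) against mean MAS5 signal (horizontal log axis) for the probe sets that are not controls (grey) and the 9 XTH genes (red); 15 probe sets with an SD above 1.5, and those with a mean under the left end of the axis, lie outside the frame. XTH33 and XTH20 sit in the upper part of the cloud just right of the floor (dashed), and XTH16 and XTH32 in the lower part of the brighter range; an SD of 0 means under the floor on all arrays.

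XTH18 and XTH19 are next to each other in the genome, and XTH24 lies on the other side of XTH18, in the TAIR10.1 gene order. Both are group II genes best known from roots. XTH19 (AT4G30290, 253608_at) had signals of 15.3, 13.0, 14.2, 10.3, 23.1, 13.5 and 17.9 in mixes 1 to 7 and 17.8 on the reference array. It was under the floor in mix 4 alone and highest in mix 5, with a range of at least 1.79-fold and an SD of log2 signal of 0.29, close to the median of its bin. XTH18 (AT4G30280, 253628_at) had 11.7, 5.8, 12.7, 16.2, 14.7, 8.3 and 6.2 in mixes 1 to 7 and 9.6 on the reference array. It passed the floor in mixes 4 and 5 only, so these neighbours were both measured in mix 5 alone.

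The last group III member, XTH29 (AT4G18990, 254598_at), passed the floor on 2 arrays as well. Its signal was 9.4, 5.3, 9.9, 7.4, 16.5, 11.5 and 18.3 in mixes 1 to 7 and 7.1 on the reference array. Mixes 5 and 7 were above the floor and the other 6 arrays under it.

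XTH21 and XTH26 had no signal above the floor. XTH21 (AT2G18800, 266066_at), a gene known for its part in root growth, had 0.40 at the lowest, 0.65 at the median and 1.00 at the highest over the 8 arrays. XTH26 (AT4G28850, 253763_at), known from root hairs, had 1.00, 1.25 and 1.80. Such signals carry no order between arrays. A signal under the floor sets a bound on what the probe set reports and does not show that the gene is silent.

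Against the reference array, none of the 9 XTH genes reached 2-fold in any mix, while 4.49% of all probe sets did so in at least 1 mix. For 9 genes, a count of 0 is near that share. The floor also limited the count. Only XTH16 and XTH32 had a reference signal at least 2-fold above the floor, so no other member could be called 2-fold lower. XTH33, at 7.7 and 7.3 in mixes 4 and 6 against 18.9, was among these. XTH21 and XTH26 could not be called in either direction. No test was made, with 1 array a mix. At 1.5-fold, 2 of the 9 were past the threshold, XTH20 in mixes 3 and 4 and XTH33 in mixes 5 and 7, beside 22.5% of all probe sets. Of the 63 values of a gene in a mix, 3 lay outside the central 95% of all probe sets in that mix. These were XTH20 in mix 3, and XTH33 in mixes 5 and 7. Measured from the mean of the 7 remaining arrays in place of the reference array, 0 of the 9 reached 2-fold, beside 1.66% of all probe sets. All 7 comparisons with the reference share that 1 array.

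With that lower floor of 2.7, the signals of XTH29 and XTH33 counted on more arrays and both passed 2-fold. XTH29 had log2 differences of 1.22 in mix 5 and 1.37 in mix 7, at signals of 16.5 and 18.3 against 7.1. XTH33 had -1.30 in mix 4 and -1.37 in mix 6. At that floor 22.1% of all probe sets passed 2-fold in at least 1 mix.

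**Figure D3:**
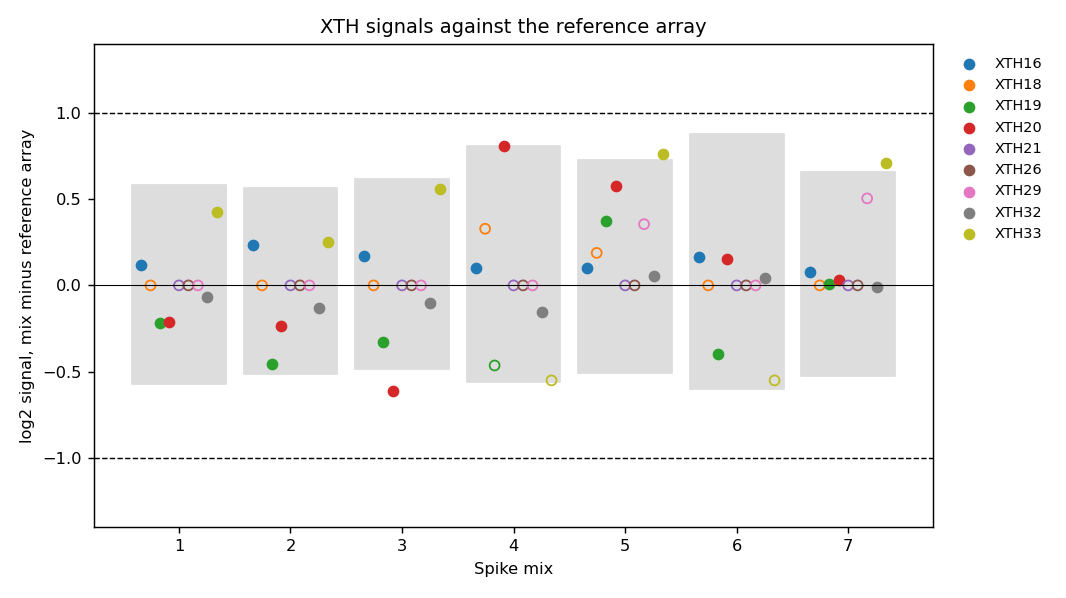
Difference in log2 signal between each mix and the reference array for the 9 XTH genes (colours), with signals under 12.9 set to 12.9. Open points have either array at or under the floor, grey bars span the central 95% of all probe sets, and dashed lines mark 2-fold; no XTH gene reaches them, and XTH20 in mix 3 and XTH33 in mixes 5 and 7 lie outside the grey bars.

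Mix 5 was the one mix in which no XTH gene counted as below the reference array. There 7 of the 9 were higher, 0 were lower and XTH21 and XTH26 were at the floor on both arrays. XTH18, XTH21, XTH26 and XTH29 were under the floor on the reference array, so none of them could count as lower in any mix. XTH18 and XTH29 passed the floor in mix 5 and could only count as higher there. The median log2 difference was 0.19, beside 0 over all probe sets. That median was the value of XTH18, at 14.7 against a reference signal of 9.6 set to the floor. It is therefore a bound set by the floor, as is the difference of XTH29. Mix 5 was singled out from the 7 mixes after its values were seen. Of the probe sets above the floor on at least 1 array, 51.3% were higher in mix 5 than on the reference array and 42.5% were lower. The 7 differences ran from 0.05 for XTH32 to 0.76 for XTH33, and mix 5 held the highest of the 8 signals for XTH19, XTH32 and XTH33, as it did for 12.9% of those probe sets. The median was 0.14 when each mix was set against the 7 remaining arrays, 0.13 after quantile normalization, 0 with a floor of 27.7 and 0.38 with a floor of 2.7. In mixes 1 to 4 and 6 the median was 0, with 3 or 4 of the 9 at the floor on both arrays. Those zeros come from the floor and do not measure a lack of difference. In mixes 1, 2 and 3, 2 genes were higher than the reference and 3 lower. Mix 4 had 3 higher and 3 lower, and mix 6 had 3 higher and 2 lower. Mix 7 also leaned upward, with 5 higher, 1 lower and 3 at the floor on both arrays. The lower gene was XTH32, at -0.009. The median in mix 7 was 0.01, the value of XTH19, at 17.9 against 17.8.

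Only 3 pairs of members could be compared over the 8 arrays. Between the 3 genes above the floor throughout, Pearson r of log2 signal, taken over the 8 arrays, came to 0.18 for XTH20 and XTH32, -0.37 for XTH16 and XTH20 and -0.40 for XTH16 and XTH32. None of these 3 pairs reached 0.8, beside 1.5% of all pairs of probe sets above the floor, so the count is near the background. The pairs share the same arrays, and the SD of 2 of the 3 genes is small, so these values are a description. Without the array of mix 4, r for XTH20 and XTH32 was 0.86, and the share over all pairs is not given for that setting.

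Other genes of xyloglucan and wall extension were read in the same way, as lists by name. Of 14 xyloglucan synthesis genes 4 could be measured, all of them CSLC genes, which encode or resemble the synthase of the xyloglucan backbone. All 4 were above the floor on all arrays, as were 66.5% of all probe sets, and 0 were 2-fold from the reference array in any mix, beside 4.49%. CSLC4 had 270.1 ± 29.1 (SD, n = 8 arrays) and CSLC5 139.5 ± 17.0. The largest SDs of log2 signal were 0.27 for CSLC6, which was highest in mixes 4 and 5 at 108.6 and 114.0, and 0.21 for CSLC12. The trimming enzymes of xyloglucan and the secondary wall cellulose synthases had no named probe set, and COB, which acts in oriented cellulose deposition, was the 1 measured gene of 9 in primary wall cellulose, at 610.3 ± 26.5 (SD, n = 8 arrays).

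Expansins, which loosen the wall without cutting its polymers, had 18 measured members. Of these 14 were above the floor on all 8 arrays and 2 on none, beside 3 and 2 of the 9 XTH genes and 66.5% and 16.5% of all probe sets. No expansin was 2-fold from the reference array in any mix, and 3 spanned 2-fold over the arrays, where the shares of all probe sets were 4.49% and 9.2%. EXPA8 had 917.2 ± 24.8 (SD, n = 8 arrays) and EXPB3 229.4 ± 17.1. The largest SDs of log2 signal were 0.47 for EXPA20, which was under the floor in mixes 4, 5 and 6 and on the reference array, and 0.43 for EXLA2. The median SD was 0.15 for expansins, 0.13 for the 9 XTH genes and 0.15 for all probe sets. Members under the floor have an SD of 0, which lowers these medians.

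EXGT-A3, the relative whose synonym is XTH27 and which is a group III gene, was named after its values were seen. It had signals of 735.9, 687.9, 690.1, 706.4, 722.2, 740.6 and 748.9 in mixes 1 to 7 and 767.2 on the reference array. Its SD of log2 signal was 0.06 and its range 1.12-fold, so it resembled XTH16 and XTH32 in steadiness. Its reference array was the highest of the 8, while that of XTH16 was the lowest.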

How the data were processed

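The deposited table gives intensities of 22810 probe sets on 8 arrays. The authors made them with MAS5, per the submitters' processing notes, and no release number is given in the sources used here. The 2% trimmed mean was 100.0 on every array, so the values were used as deposited. The 64 control probe sets were kept apart. Of the probe sets, 13513 have 1 gene in the platform's table, 503 have several and 8794 are unnamed here; 13436 matched the TAIR10.1 table. No probe set with several genes names an XTH gene.

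Signals under the 25th percentile of the table, 12.9, were set to it before log2 was taken. Differences were counted at 2-fold from the reference array, without a test, and shares over all probe sets stand beside them. All XTH genes were named; of each other wall gene list, those named are the 2 with the highest mean signal and the 2 most variable by SD, and all measured marker genes were named. Members and lists were chosen with earlier results of these data known. Alternatives were 2 scalings, 2 floors, 1.5-fold, comparison with the mean of the 7 remaining arrays, leaving out arrays and other thresholds on r. The 2-fold calls and the SDs were checked on simulated data, for probe sets well above the floor alone. That check does not cover genes near or under the floor. The number of arrays limits the precision. Software was matplotlib 3.10.9, scipy 1.17.1, numpy 2.4.6 and pandas 2.3.3 under Python 3.11.15.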

Additional observations from a re-analysis of the deposited data

How the results depend on the processing

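The floor mattered most, since 7 of the 9 XTH genes lie near or under it. A floor at the 10th percentile left 7 genes above it on all arrays. At that floor 2 genes were 2-fold from the reference array, beside 22.1% of all probe sets, and 5 spanned 2-fold. The median SD was 0.35, and the median log2 differences were -0.13 in mix 2 and 0.38 in mix 5. At the 40th percentile, the median SD, the mix 5 median and the number spanning 2-fold were all 0. The share of all probe sets spanning 2-fold is not given for either floor. At 1.5-fold, 2 genes passed. Scaling to a common median and quantile normalization left 4 XTH counts unchanged. These were the genes above the floor on all arrays, at 2-fold from the reference and spanning 2-fold, and the pairs with r of at least 0.8. Counts per array, and of genes higher or lower than the reference, are not given for these scalings. The mix 7 median went from 0.008 to 0 under both. Leaving out 1 array at a time gave median SDs of 0.076 to 0.13, the lowest without mix 4, 0 genes past 2-fold, and 0 to 1 pairs with r of at least 0.8. Without the arrays of mixes 4, 5 and 6 there was 1 such pair, XTH19 and XTH32, over 5 arrays, and 0 genes spanned 2-fold. At that setting 5 genes were above the floor, so more pairs could be compared. XTH16 had r of -0.96 with XTH32 and -0.95 with XTH19 there. The share over all pairs of probe sets is not given with arrays left out, so these pair counts have no background. The probe sets under the floor in mixes 4 and 6 alone numbered 41 after quantile normalization and 14 and 13 with the floor at the 10th and 40th percentiles. The alternatives with EXGT-A3 added, and all those on the 2-fold span and on the mixes 4 and 6 pattern, were chosen after seeing the data. Of 135 recomputed values, 106 stayed within the set limits. Some of these could not move, as the SDs of XTH21 and XTH26 were 0 at every setting and several medians were held at 0 by the floor. The limits also let pass a fall from 3 to 2 genes above the floor on all arrays, at the 40th percentile. The tally is therefore no measure of how firm the results are. No paired analysis was possible because each mix has 1 array. The cause of these changes was not tested beyond the floor's own construction.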
